A study of Mus musculus with 2 samples.

Results

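Iron handling genes were examined in macrophages of the sciatic nerve (SN), the large mixed nerve of the hind limb. The set holds 8 genes, listed by name from what they are known to do, of 54838 genes in the count tables. They are *Fth1*, *Ftl1*, *Hmox1*, *Slc40a1*, *Cp*, *Slc11a1*, *Tfrc* and *Trf*, and all 8 had UMIs in both libraries. The study sorted CD64+ CD45int macrophages from SNs of 19 male mice carrying Flt3-Cre with LSL-YFP fl/fl, aged 10 to 12 weeks, whose cells were combined. In these mice Cre is driven by *Flt3*, so that YFP stays on in cells that went through a *Flt3*-expressing stage and in their progeny. All cells therefore came from mice with the same alleles and differ in the YFP gate. YFP-negative and YFP-positive cells were each sequenced as 1 library on a droplet platform that counts the 3′ ends of transcripts. With 1 library for each gate, no test of the gate was possible, and every ratio compares 2 libraries.

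Macrophages take up iron bound to transferrin through the transferrin receptor and take up heme when they engulf dying cells. Heme oxygenase splits heme and frees its iron, ferritin cages hold iron that is not in use, and ferroportin carries it out of the cell with the help of a copper-containing oxidase. Several of these transcripts carry an iron-responsive element, a short hairpin that iron regulatory proteins bind when iron is scarce. Binding in the 5′ UTR blocks translation, so the protein can change without a change in RNA. Binding in the 3′ UTR protects the transcript from decay.

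The core of this hairpin was looked for in the transcripts of every protein-coding gene, as a C, 5 stem bases, the loop CAGTGN and 5 bases that pair with the stem, with G-T pairs allowed. It is shown here because it divides the set in a way that the choice of genes did not use. Of the 8 genes 4 held it, compared with 369 of 21951 protein-coding genes (1.68%). Of 43 further genes of iron and heme metabolism, 0 held it. The pattern allows no unpaired base within the stem, so hairpins of another form are missed. A gene without a match may therefore still carry an element. Matches in the 8 and the 43 genes were counted in protein-coding transcripts only, those of the 369 genes in any transcript. The 8 genes were listed from what they are known to do, so their share does not measure enrichment among iron genes. The loop is in capitals, every site is given 5′ to 3′ on the strand of its gene, and positions are those of GRCm38 with the GENCODE M21 annotation. *Fth1* and *Ftl1* hold 1 site each in the 5′ UTR, at chr19:9982738-9982754 on the plus strand and chr7:45459785-45459801 on the minus strand, both in exon 1. *Slc40a1* holds 1 site in the 5′ UTR, in exon 1 at chr1:45925471-45925487 on the minus strand. *Tfrc* holds 4 sites in its 3′ UTR, all in exon 19 on the plus strand, at chr16:32631225-32631241, chr16:32631604-32631620, chr16:32631669-32631685 and chr16:32631716-32631732. They are listed below in that order.
Fth1: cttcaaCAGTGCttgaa
Ftl1: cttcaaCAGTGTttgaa
Slc40a1: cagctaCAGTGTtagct
Tfrc, site 1: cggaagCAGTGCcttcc
Tfrc, site 2: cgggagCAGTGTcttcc
Tfrc, site 3: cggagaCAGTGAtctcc
Tfrc, site 4: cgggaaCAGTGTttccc

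This pattern did not occur in protein-coding transcripts of *Hmox1*, *Cp*, *Slc11a1* or *Trf*. The 4 genes with a site include the highest levels of the set, those of the ferritin chains, and the lowest, those of *Slc40a1* and *Tfrc*. A second sequence, TGANNNNGC on either strand, is the core of the element through which oxidant-responsive factors act. It was looked for from 250 bases before to 50 bases after the RefSeq gene starts on GRCm38.p6. Promoters were listed for 5 of the 8 genes, and 1 of these genes, *Slc11a1*, held the sequence, as did 41.3% of 32851 promoters. No promoter was listed for *Hmox1*, *Slc40a1* or *Trf*, so these were not searched. Sites farther from the gene starts were not looked for in any gene.

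Cells were barcodes with at least 500 UMIs and 200 genes, which gave 1045 YFP-negative and 4053 YFP-positive cells, 5098 in all. The median depth was 2233 UMIs for YFP-negative and 1484 UMIs for YFP-positive cells, and 7 cell barcodes occurred in both libraries. Of 10 macrophage markers such as *Adgre1*, *Csf1r* and *C1qa*, 10 were detected in each library, with a summed level of 20131 UMIs per 1000000 (CPM) in YFP-negative and 20104 CPM in YFP-positive cells. The 8 Schwann cell markers summed to 526 and 530.3 CPM in cells. Barcodes with 10 to 100 UMIs were taken to hold RNA that was free in the suspension, and there the same Schwann cell markers summed to 2743 and 4468 CPM. The macrophage markers summed to 21901 and 20325 CPM there, so these sparse barcodes held macrophage RNA too. A gene of macrophages need not exceed them. A level or share no higher than theirs does not show that its UMIs in cells were free RNA. None of 6 erythroid markers had a UMI in a cell of either library. Each level below is the sum of a gene's UMIs over the cells, scaled to CPM. A UMI stands for 1 captured molecule whatever the length of the transcript, so these levels were not scaled by length. Values in parentheses are 95% intervals, exact Poisson for levels and Clopper-Pearson for shares of cells. They hold counting error alone, without any spread between animals, sorts or libraries. Intervals of levels and log2 ratios also count UMIs as independent and leave out spread between cells. Where the UMIs of a gene gather in some cells, as those of ferritin can, they are too narrow.

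The set made up 1.77% of the UMIs of YFP-negative cells and 1.73% of those of YFP-positive cells, and most of that was ferritin. The order of levels was the same in both libraries down to *Hmox1*, with *Ftl1* first, then *Fth1*, *Trf* and *Hmox1*. *Cp* and *Slc11a1* came next with overlapping intervals, and *Slc40a1* and *Tfrc* came last, also with overlapping intervals.

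**Figure D1:**
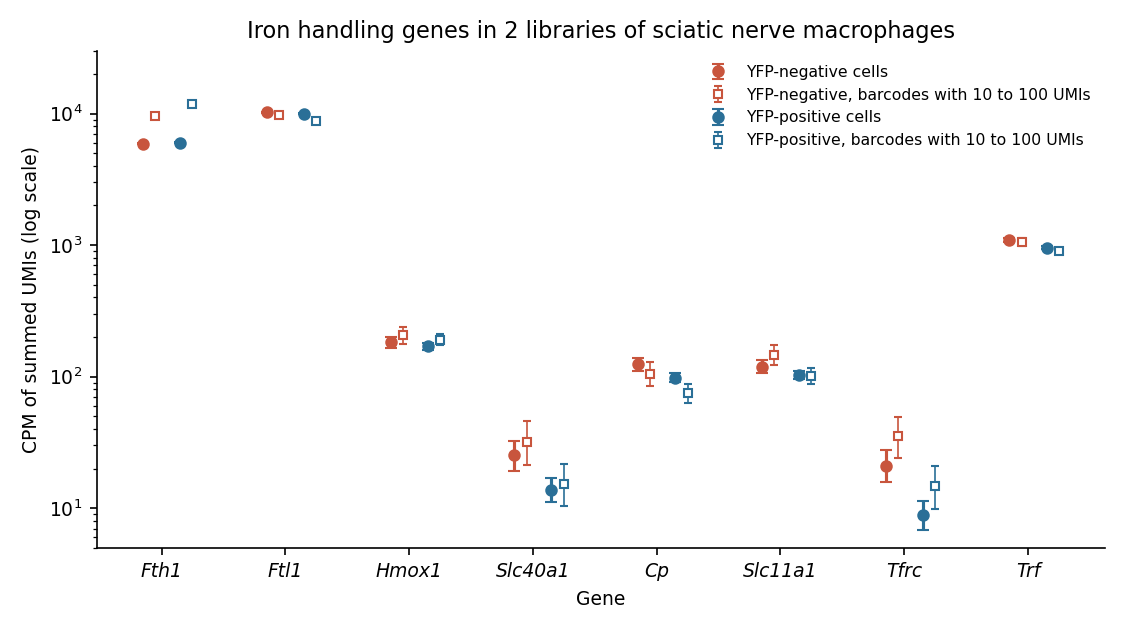
Levels of the 8 genes on a log scale, as CPM of summed UMIs, in YFP-negative (red) and YFP-positive (blue) cells (filled circles) and in barcodes with 10 to 100 UMIs of the same libraries (open squares), with exact Poisson 95% intervals. Levels run from about 10000 CPM for *Ftl1* to 21.1 and 8.89 CPM for *Tfrc*. The open squares of *Fth1*, *Tfrc*, *Hmox1* and *Slc40a1* lie above their circles in both libraries, for *Hmox1* and *Slc40a1* within counting error.

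*Fth1* encodes the heavy chain of ferritin, which oxidizes iron on its way into the cage (chr19:9980598-9985098, plus strand). It was at 5915 CPM (5819–6013) in YFP-negative cells and 5979 CPM (5920–6037) in YFP-positive cells, and the intervals overlapped. The log2 ratio of YFP-positive over YFP-negative cells, taken after adding 1 CPM, was 0.02 (−0.01 to 0.04). *Ftl1*, the light chain that aids the formation of the mineral core (chr7:45457944-45459884, minus strand), was at 10200.4 CPM (10074–10329) and 9991 CPM (9916–10067), with a log2 ratio of −0.03 (−0.05 to −0.01). Light-chain UMIs outnumbered heavy-chain UMIs 1.72 to 1 in YFP-negative and 1.67 to 1 in YFP-positive cells. Together the chains took 1.61% and 1.60% of all UMIs, and 91.1% and 92.2% of the UMIs of the set.

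Nearly every cell held ferritin UMIs. Before any correction for depth a *Ftl1* UMI was found in 99.5% of YFP-negative and 99.3% of YFP-positive cells. With each cell thinned to 500 UMIs the shares were 97.2% (96.04–98.1) and 97.1% (96.5–97.6) for *Ftl1*, and 90.6% (88.7–92.3) and 91.02% (90.1–91.9) for *Fth1*. A barcode made only of free RNA would hold a *Fth1* UMI at that depth in 99.2% and 99.7% of cases, so detection by itself does not separate a cell from free RNA. Counts per thinned cell had a median of 4 *Ftl1* UMIs in both libraries. The variance of *Ftl1* over its mean was 1.74 in YFP-negative and 2.03 in YFP-positive cells and that of *Fth1* 1.66 and 1.96. The median of 2632 genes with a mean level of at least 50 CPM was 1.04 and 1.02. This measure can rise with the mean count, and genes near 50 CPM have far fewer UMIs per cell than ferritin. The values therefore do not show that ferritin varied more between cells than other genes.

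*Ftl1-ps1*, a copy of the light chain that is named as a pseudogene and annotated as protein-coding, shares 99.6% of 910 aligned bases with *Ftl1*, so reads can be split between them, and the values of both are uncertain to that extent. It holds the same hairpin as *Ftl1*, at chr13:74406434-74406450. *Ftl1-ps1* was at 850 CPM in YFP-negative and 340.4 CPM in YFP-positive cells, with 7.69% and 3.29% of the UMIs of the pair. The log2 ratio was −1.32 (−1.40 to −1.23), unlike that of *Ftl1*. Of the 417 genes with a mean level of at least 20 CPM that differed by at least 1.5-fold between the libraries, 219 (52.5%) were annotated pseudogenes, compared with 4.39% of all 5531 genes at that level. With all annotated copies added to their genes, the log2 ratio of *Ftl1* was −0.10. Its direction was not stable, since thinning cells to 500 UMIs before summing put it at 0.017 and equal cluster shares at 0.018.

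To see how the set varied among cells, cells of both libraries were clustered on 2000 variable genes, without the set and without 43 further iron genes. This gave 11 clusters, which are called by their 3 leading genes. Both ferritin chains were lowest or nearly lowest in the *Top2a*, *Hist1h2ae* and *Hist1h2ap* cluster of 69 cells, whose leading genes include the proliferation markers *Mki67* and *Birc5*. There *Fth1* was at 4218 CPM among YFP-negative and 4156 CPM among YFP-positive cells, compared with 5954 and 6027 CPM in the other cells of each library. The log2 ratio to the other cells was −0.50 (−0.69 to −0.31) and −0.54 (−0.64 to −0.43). *Ftl1* was at 7445 and 7225 CPM in this cluster, with log2 ratios to the other cells of −0.46 (−0.61 to −0.32) and −0.48 (−0.56 to −0.40). This cluster had the highest median depth of the 11, at 3101 UMIs per cell. The lower CPM is a lower share of UMIs and does not show fewer ferritin UMIs per cell.

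The chains parted in the *Acta2*, *Tagln* and *Igfbp7* cluster of 101 cells. Its cells had raised levels of 7 of 7 detected Schwann cell, 7 of 7 mural cell and 7 of 7 fibroblast markers and of 0 of 10 macrophage markers. The macrophage markers still summed to 8710 CPM there, compared with 20298 CPM in the other cells. The cluster thus carried RNA of other cell types beside macrophage RNA, which goes against a macrophage label alone. Whether its barcodes hold mixtures of cells was not tested. *Fth1* was at 11316 CPM among its 12 YFP-negative cells and 10490 CPM among its 89 YFP-positive cells. These were above the other cells by log2 ratios of 0.95 (0.74 to 1.15) and 0.83 (0.75 to 0.91). *Ftl1* was at 3193 and 5423 CPM there, below the other cells by log2 ratios of −1.68 (−2.08 to −1.31) and −0.89 (−1.004 to −0.79). The YFP-negative values include 1 cell with 3863 UMIs, of which 1 was *Fth1* and 5 were *Ftl1*. Without it the YFP-negative cells of the cluster had 14369.5 CPM (12451.5–16499.2) of *Fth1* and 3717 CPM (2776–4875) of *Ftl1*. Across the other 10 clusters *Fth1* ranged from 4171 to 6806 CPM and *Ftl1* from 7278 to 11182 CPM, over both libraries. *Fth1* was highest in the *Irf7*, *Ifi213* and *Ifit3* cluster, and 6556 CPM (6241–6883) without the cell that held most *Ftl1* UMIs. The 11182 CPM of *Ftl1* in the same cluster rests on that 1 YFP-positive cell, with 386 of the cluster's 2808 *Ftl1* UMIs, and without it the level was 9766 CPM (9381–10163), below the 11007 CPM of the *Gpx3* cluster.

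**Figure D2:**
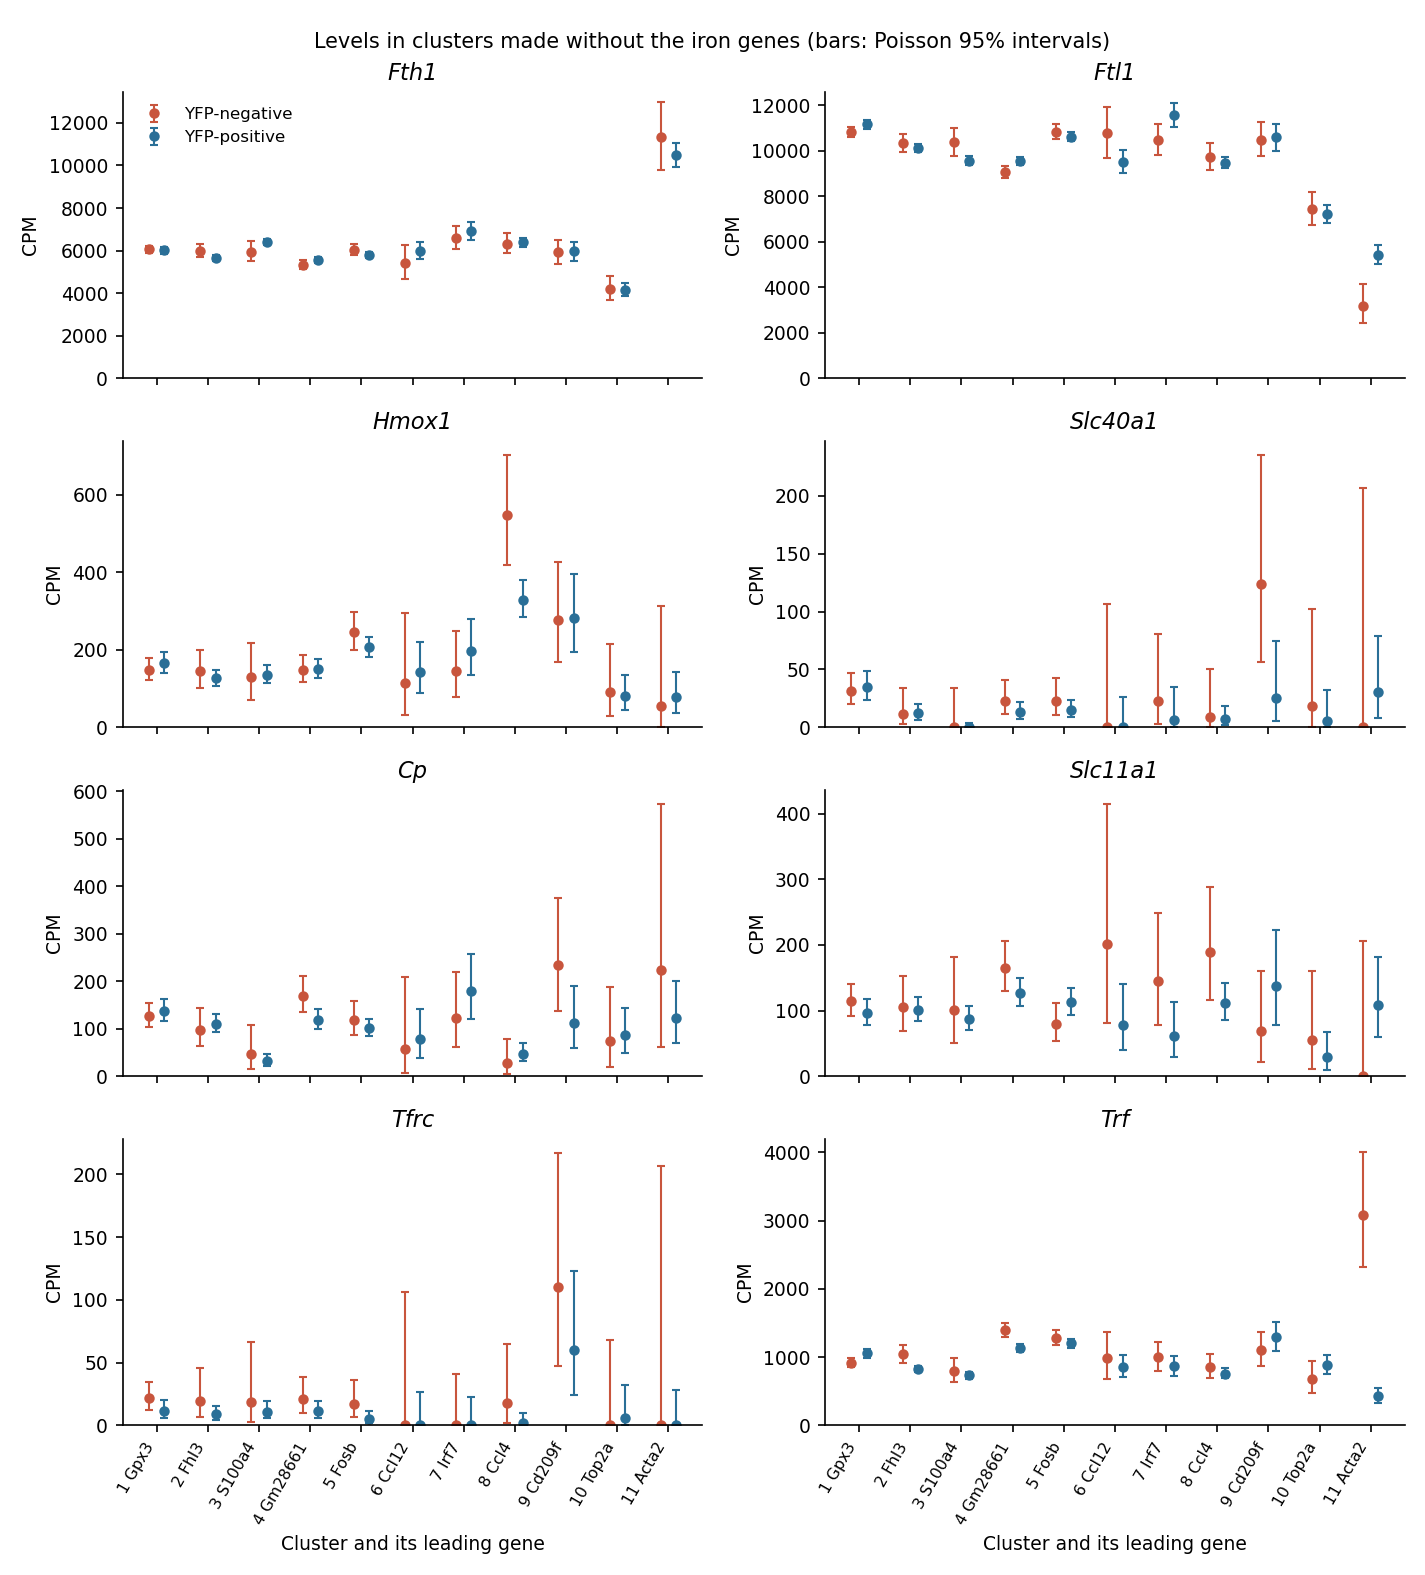
Level of each gene in each of 11 clusters, as CPM of the summed UMIs of the cluster's YFP-negative (red) and YFP-positive (blue) cells, with exact Poisson 95% intervals. Clusters are labelled by number and first leading gene. *Fth1* rises and *Ftl1* drops in cluster 11 (*Acta2*), *Hmox1* is highest in cluster 8 (*Ccl4*), *Cp* is lowest in clusters 3 (*S100a4*) and 8, and *Tfrc* in both libraries and *Slc40a1* among YFP-negative cells are highest in cluster 9 (*Cd209f*), where intervals are wide.

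*Fth1* also differed between cells and sparse barcodes. In barcodes with 10 to 100 UMIs it was at 9650 CPM (9449–9854) in the YFP-negative and 11727 CPM (11579–11877) in the YFP-positive library, above its level in cells by log2 values of 0.71 and 0.97. *Ftl1* was at 9806 and 8748 CPM in these barcodes, below its level in cells by log2 values of 0.06 and 0.19. Among cells, *Fth1* was at 4872 and 5397 CPM at 500 to 999 UMIs and at 6216 and 6356 CPM at 2000 UMIs or more, while *Ftl1* went from 6771 and 8653 CPM to 10665 and 10492 CPM. The Schwann cell markers moved the other way, from 2902 and 1199 CPM in the shallowest cells to 382 and 401 CPM in the deepest. The genes whose counts in thinned cells were most like those of *Fth1* were *Mbp*, a gene of myelin (Pearson's r of 0.15 in each library), *Sparc* (0.11 in each) and *Tmsb4x* (0.11 and 0.14). These are correlations across 1045 and 4053 cells of 1 library each, which share their library's free RNA, and the part of that RNA in the level of *Fth1* was not tested. After subtraction of 10% of the UMIs as free RNA the log2 ratio of *Fth1* between the libraries was −0.04.

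**Figure D3:**
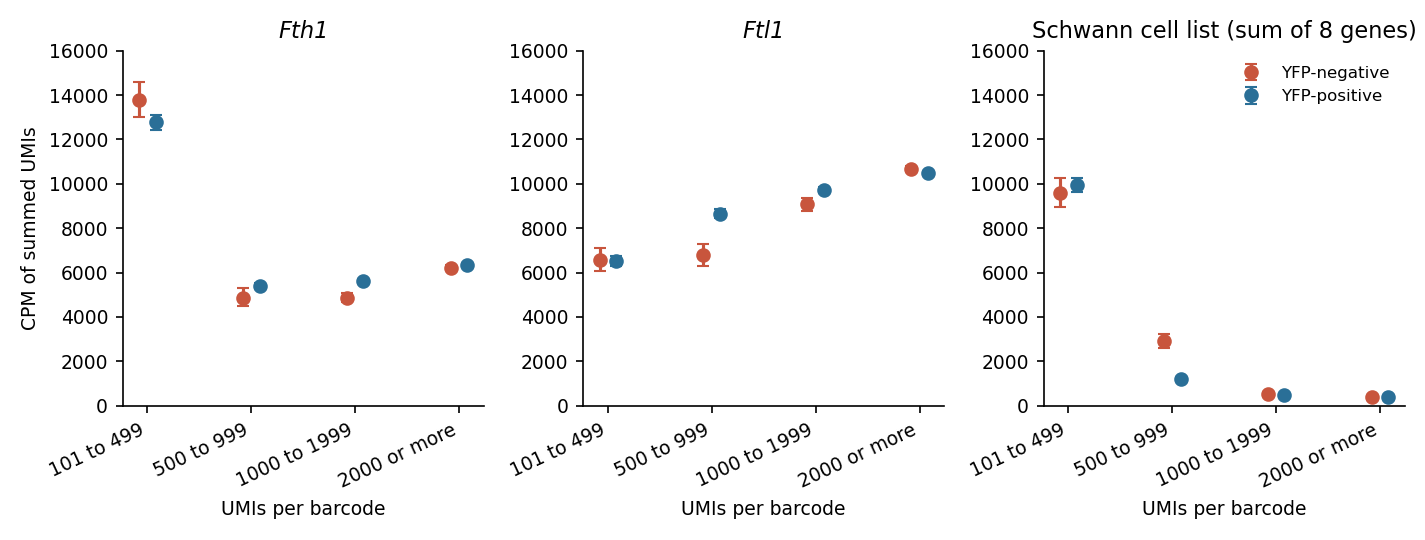
Level of *Fth1*, *Ftl1* and the summed Schwann cell markers against the number of UMIs of the barcode, in YFP-negative (red) and YFP-positive (blue) libraries, as CPM with exact Poisson 95% intervals. Barcodes with 101 to 499 UMIs are not cells by the rule used. *Fth1* and the Schwann cell markers are highest there, at 13785 and 12779 CPM for *Fth1*, whereas *Ftl1* is highest in barcodes with 2000 UMIs or more.

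*Hmox1* encodes heme oxygenase 1, the inducible enzyme that opens the heme ring (chr8:75093621-75100589, plus strand). It was at 183 CPM (166–200.7) in YFP-negative and 170.4 CPM (161–181) in YFP-positive cells. The intervals overlapped, and the log2 ratio was −0.10 (−0.26 to 0.06). Thinning before summing put this ratio at 0.13, from 1 random draw that kept part of the UMIs, with no interval taken. With equal weights for cells the ratio stayed within −0.26 to 0.06. An *Hmox1* UMI was found in 6.70% (5.26–8.39) of thinned YFP-negative and 7.57% (6.78–8.43) of thinned YFP-positive cells, and without thinning in 27.4% and 21.8%. The profile of sparse barcodes would give 9.77% and 9.12% at that depth. These barcodes held macrophage RNA too, so the share of cells alone cannot tell RNA of the cell from free RNA.

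Between clusters *Hmox1* varied 4.89-fold. It was highest in the *Ccl4*, *Cxcl2* and *Il1b* cluster of 293 cells, whose leading genes also include the heat-shock gene *Hspa1a* and the stress gene *Atf3*. It stood at 548 CPM (419–703) among 35 YFP-negative cells and 329 CPM (284–380.02) among 258 YFP-positive cells there. The other cells of each library had 165 and 156 CPM, and the log2 ratios to them were 1.72 (1.31 to 2.12) and 1.07 (0.84 to 1.30). Within this cluster YFP-positive cells were lower than YFP-negative cells, with a log2 ratio of −0.73 (−1.16 to −0.29). *Hmox1* was next highest in the *Cd209f*, *Cd209g* and *Fcna* cluster, at 276 CPM among YFP-negative and 282 CPM among YFP-positive cells. The *Fosb*, *Jun* and *Fos* cluster followed with 245 and 206 CPM. The genes most like *Hmox1* across cells were *Nfkbia*, *Junb* and *Jun*, with r from 0.07 to 0.13. Counts of *Hmox1* were too sparse for r to show a relation or its absence.

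Other genes of the set were then compared between cells with and without an *Hmox1* UMI, at 500 UMIs per cell. *Ftl1* was at 10345 CPM in 307 YFP-positive cells with an *Hmox1* UMI and 9611 CPM in 3746 without, a log2 ratio of 0.11 (0.03 to 0.18). In YFP-negative cells the values were 9600.0 and 9551 CPM and the log2 ratio 0.01 (−0.16 to 0.17), with 70 cells that had an *Hmox1* UMI. When only cells with at least 1500 UMIs were used, thinned to that number, the log2 ratio of *Ftl1* was 0.17 (0.13 to 0.20) in YFP-positive and −0.00 (−0.07 to 0.06) in YFP-negative cells. *Slc40a1* had a log2 ratio of 1.65 (0.25 to 2.85) in YFP-positive cells, from 7 UMIs in cells with and 26 in cells without an *Hmox1* UMI. At 1500 UMIs it was 0.12 (−1.09 to 1.23). *Fth1* at 1500 UMIs was lower in cells with an *Hmox1* UMI, with log2 ratios of −0.11 (−0.20 to −0.02) in YFP-negative and −0.05 (−0.10 to −0.002) in YFP-positive cells. *Trf* at 1500 UMIs had a log2 ratio of 0.15 (0.02 to 0.27) in YFP-positive cells. At 500 UMIs the intervals of the genes other than *Ftl1* and *Slc40a1* held 0 in both libraries, and so did the intervals not given here at 1500.

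*Slc40a1* encodes ferroportin, the known exporter of iron from cells (chr1:45908068-45926523, minus strand). It was at 25.2 CPM (19.3–32.4) in YFP-negative cells, from 61 UMIs, and at 13.8 CPM (11.1–16.9) in YFP-positive cells, from 93 UMIs. The intervals did not overlap, and the log2 ratio was −0.83 (−1.28 to −0.36), a 1.83-fold lower level in the YFP-positive library. Sparse barcodes showed the same order, with 31.9 CPM in the YFP-negative and 15.2 CPM in the YFP-positive library. A *Slc40a1* UMI was found in 1.05% (0.527–1.88) of thinned YFP-negative and 0.765% (0.520–1.08) of thinned YFP-positive cells, where sparse barcodes would give 1.58% and 0.759%.

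*Slc40a1* was uneven between clusters. The *Gpx3*, *Tslp* and *Ccl24* cluster held 59 of its 154 UMIs, at 31.7 CPM (20.5–46.7) among YFP-negative and 34.5 CPM (23.9–48.3) among YFP-positive cells. The libraries did not differ beyond counting error there, with a log2 ratio of 0.12 (−0.64 to 0.90). The YFP-positive cells of this cluster were above the other YFP-positive cells, which had 10.2 CPM, by a log2 ratio of 1.66 (1.04 to 2.26). Its YFP-negative cells did not differ beyond counting error from the other YFP-negative cells, which had 22.1 CPM, with a log2 ratio of 0.50 (−0.27 to 1.25). The *S100a4*, *S100a6* and *Lgals3* cluster of 569 cells, with *Ccr2* among its leading genes, held 0 *Slc40a1* UMIs. The interval of this 0 reached 3.29 CPM, below the 19.1 CPM of the other cells, with a log2 ratio of −4.33 (−4.33 to −2.21). The difference rests on its 531 YFP-positive cells, with at most 3.65 CPM, compared with 16.2 CPM in the other YFP-positive cells. Among its 38 YFP-negative cells the interval reached 33.9 CPM, above the 26.4 CPM of the other YFP-negative cells. A lower level was thus not shown among YFP-negative cells. These clusters took different shares of the libraries. The *Gpx3* cluster held 29.1% of YFP-negative and 12.1% of YFP-positive cells, and the *S100a4* cluster 3.64% and 13.1%. When the YFP-positive clusters were weighted to the UMI shares of the YFP-negative library, *Slc40a1* was at 19.3 CPM in YFP-positive cells and its log2 ratio was −0.37. Over both libraries the highest level was in the *Cd209f*, *Cd209g* and *Fcna* cluster of 128 cells, at 124 CPM (56.8–236) from 9 UMIs among YFP-negative and 25.6 CPM (5.29–75.0) from 3 UMIs among YFP-positive cells.

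*Cp* encodes ceruloplasmin, the copper oxidase that lets exported iron bind transferrin (chr3:19957054-20009145, plus strand). It was at 124 CPM (110.4–139) in YFP-negative and 98.1 CPM (90.8–106) in YFP-positive cells, and the log2 ratio was −0.34 (−0.53 to −0.14). Sparse barcodes had 106 and 74.7 CPM. Cells were above them by a log2 ratio of 0.39 (0.14 to 0.65) in the YFP-positive library, and in the YFP-negative library the log2 ratio of 0.23 (−0.10 to 0.57) was within counting error. A *Cp* UMI was found in 7.18% (5.69–8.91) of thinned YFP-negative and 5.18% (4.52–5.91) of thinned YFP-positive cells, where sparse barcodes would give 5.14% and 3.67%, shares that carry their own counting error.

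Over both libraries *Cp* was lowest in the *S100a4* cluster, with 46.02 CPM (14.9–107) among YFP-negative and 32.6 CPM (22.5–45.8) among YFP-positive cells. Against the other YFP-positive cells, at 109.7 CPM, the log2 ratio was −1.72 (−2.25 to −1.22). It was also low in the *Ccl4* cluster, in which *Hmox1* was highest, with 26.9 CPM (5.55–78.7) and 47.8 CPM (31.5–69.5). The log2 ratios to the other cells there were −2.22 (−4.32 to −0.69) among YFP-negative and −1.09 (−1.69 to −0.54) among YFP-positive cells. In the *Gpx3* cluster, where *Slc40a1* was raised among YFP-positive cells, *Cp* was at 127 CPM in YFP-negative and 138 CPM in YFP-positive cells. Its log2 ratio to the other cells there was 0.04 (−0.31 to 0.39) among YFP-negative and 0.59 (0.31 to 0.86) among YFP-positive cells. The *Irf7* cluster had 123 and 179 CPM. At the same cluster shares the log2 ratio of *Cp* between the libraries was −0.11.

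*Slc11a1* encodes NRAMP1, a transporter that moves iron and manganese out of the phagosome (chr1:74375195-74386062, plus strand). It was at 119 CPM (106–134) in YFP-negative and 103 CPM (95.2–111) in YFP-positive cells. The intervals overlapped, and the log2 ratio was −0.21 (−0.41 to −0.01). Thinning before summing, with 1 random draw and no interval taken, put it at −0.42. Equal weights for cells left it within its interval. Thinned cells with a *Slc11a1* UMI made up 6.99% (5.52–8.70) of YFP-negative and 5.18% (4.52–5.91) of YFP-positive cells, close to the 7.10% and 4.94% that sparse barcodes would give. Between clusters it varied 3.94-fold. The lowest level over both libraries, 35.2 CPM from 8 UMIs, was in the *Top2a* cluster, where both ferritin chains were low as well. Its log2 ratio to the other cells was −1.82 (−3.35 to −0.62) among YFP-positive cells.

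*Tfrc* encodes the transferrin receptor (chr16:32608920-32632794, plus strand). It was the lowest gene of the set in both libraries, at 21.1 CPM (15.7–27.7) from 51 UMIs in YFP-negative and 8.89 CPM (6.79–11.4) from 60 UMIs in YFP-positive cells. The intervals did not overlap, and the log2 ratio was −1.16 (−1.68 to −0.63), a 2.37-fold lower level in the YFP-positive library. Sparse barcodes had more than cells and the same order, at 35.2 and 14.7 CPM. A UMI was found in 1.05% of thinned YFP-negative and 0.444% of thinned YFP-positive cells, where sparse barcodes would give 1.74% and 0.735%. As these barcodes held macrophage RNA too, the shares cannot tell RNA of the cell from free RNA.

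*Tfrc* was highest in the *Cd209f*, *Cd209g* and *Fcna* cluster, at 110.3 CPM (47.6–217) from 8 UMIs among YFP-negative and 59.8 CPM (24.1–123) from 7 UMIs among YFP-positive cells. The log2 ratios to the other cells were 2.53 (1.25 to 3.61) and 2.76 (1.42 to 3.87). In the other clusters, over both libraries, *Tfrc* was at 15.8 CPM or less. At the same cluster shares the log2 ratio between the libraries was −0.98, so weighting the clusters alike changed the ratio of *Tfrc* less than that of *Slc40a1*. No interval was taken for the weighted values. Within every cluster that held *Tfrc* UMIs the interval of the ratio between the libraries held 0. It was −0.89 (−2.02 to 0.22) in the *Gpx3* and −0.87 (−2.54 to 0.76) in the *Cd209f* cluster.

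*Trf* encodes transferrin, the carrier of iron in blood (chr9:103204001-103230444, minus strand). It was at 1098 CPM (1057–1141) in YFP-negative and 954 CPM (931–978) in YFP-positive cells, next in the set after the ferritin chains. The intervals did not overlap, and the log2 ratio was −0.20 (−0.27 to −0.14). Thinned cells with a *Trf* UMI made up 43.0% (39.9–46.03) of YFP-negative and 35.4% (33.9–36.9) of YFP-positive cells, and sparse barcodes, at 1058 and 906 CPM, would give 41.1% and 36.5%. The level of *Trf* did not differ between cells and sparse barcodes beyond counting error in either library. Among YFP-positive cells it was lowest in the *Acta2* cluster, at 425 CPM (320.1–553), with a log2 ratio to the other YFP-positive cells of −1.18 (−1.59 to −0.80). The YFP-negative cells of that cluster had 3081 CPM, but 53 of their 55 *Trf* UMIs came from 1 cell, and without it they had 143 CPM (17.3–516). Next lowest among YFP-positive cells was the *S100a4* cluster, at 731 CPM, with a log2 ratio to the others of −0.44 (−0.55 to −0.33). At the upper end, over both libraries, the *Fosb* and *Cd209f* clusters and the *Gm28661*, *Mmp9* and *mt-Co2* cluster had 1224, 1219 and 1212 CPM and did not differ beyond counting error. The gene most like *Trf* across cells was *Apoe*, a lipid carrier made by macrophages, with r of 0.14 in YFP-negative and 0.19 in YFP-positive cells. The log2 ratio between the libraries was −0.09 at the same cluster shares, −0.33 with equal weights for cells and −0.44 with thinning before summing.

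Set side by side, no gene of the set was higher by 1.5-fold in YFP-positive cells. Of the 6 genes with a mean level of at least 20 CPM, 0 were past 1.5-fold in either direction. Of all 5531 genes at that level, 91 (1.65%) were at least 1.5-fold higher and 326 (5.89%) at least 1.5-fold lower in YFP-positive cells, and the median log2 ratio was −0.002. The genes under that level, *Slc40a1* and *Tfrc*, were both lower in YFP-positive cells by more than 1.5-fold. Among 3848 genes with a mean level of 10 to 30 CPM, 388 (10.1%) were. The shares of all genes in this paragraph count annotated pseudogenes, and none was taken without them. At 20 CPM or more, pseudogenes were 219 of the 417 genes past 1.5-fold. Log2 ratios of *Slc40a1*, *Cp*, *Slc11a1*, *Tfrc*, *Trf* and *Ftl1* lay below 0 with their intervals, and those of *Fth1* and *Hmox1* held 0. The share of all genes with an interval below 0 was taken only at 5 to 20 CPM, where it was 12.2%. At higher levels intervals are narrower and no such share was taken, so this list does not show a shift of the set. The sign of the *Ftl1* ratio was not stable, as it turned with thinning, with equal weights for cells and at equal cluster shares.

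**Figure D4:**
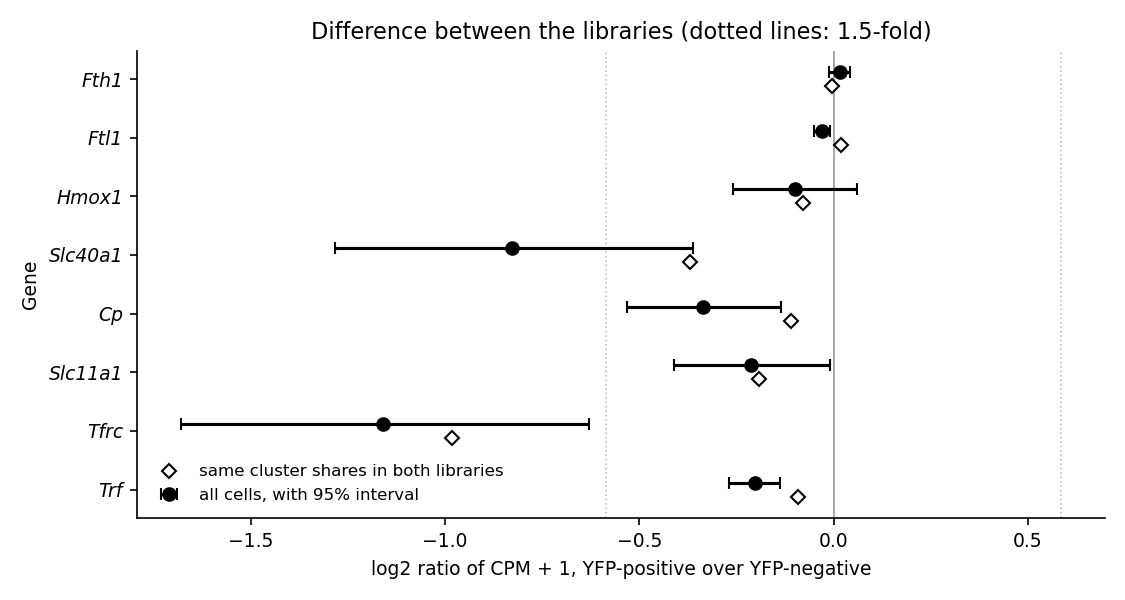
Log2 ratio of CPM + 1, YFP-positive over YFP-negative cells, for each gene, over all cells with its exact binomial 95% interval (filled circles) and with YFP-positive clusters weighted to the UMI shares of the YFP-negative library (open diamonds). Dotted lines mark 1.5-fold. *Slc40a1* and *Tfrc* lie beyond the lower line, and with equal cluster shares *Slc40a1* moves inside it, to −0.37, while *Tfrc* stays beyond it, at −0.98.

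Of 43 further genes of iron and heme metabolism, 18 had a mean level of at least 20 CPM. None of the 18 was past 1.5-fold in either direction. Their median log2 ratio was −0.04, with a range from −0.52 for *Ncoa4*, which guides ferritin to lysosomes, to 0.30 for *Blvra*, a biliverdin reductase, both named after their values were seen. The highest was *Cd163*, the receptor for hemoglobin bound to haptoglobin, at 1079 CPM in YFP-negative and 1022 CPM in YFP-positive cells. *Blvrb*, which reduces biliverdin and flavins, was at 428 and 364 CPM. The iron chaperone *Pcbp2* was at 237 and 266 CPM, and *Hfe*, which binds the transferrin receptor, at 189 and 165 CPM. Of the genes under 20 CPM, 13 had a mean level of 5 CPM or more. The interval of the log2 ratio lay below 0 for 3 of the 13 and above 0 for 0. It lay below 0 for 12.2% and above 0 for 4.15% of all 4534 genes at that level, annotated pseudogenes included. Among the 3 is *Lcn2*, for which 31 of 32 YFP-negative UMIs came from 1 cell. *Ftmt* (mitochondrial ferritin), *Hamp* (hepcidin, the hormone that closes ferroportin), *Heph* (hephaestin, an oxidase related to ceruloplasmin) and *Tfr2* (transferrin receptor 2) had no UMI in a cell of either library.

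Across cells of one library, correlations between genes of the set were low, in counts too sparse to show whether the genes moved together. At 500 UMIs *Trf*, the highest gene after ferritin, averaged 0.62 UMIs per YFP-negative and 0.46 per YFP-positive cell. Over 28 pairs in thinned cells the Pearson correlation of log2(UMI + 1) lay between −0.09 and 0.10. In cells with at least 1500 UMIs, thinned to that number, it lay between −0.11 and 0.12, and the highest value across YFP-positive cells was 0.12, for *Ftl1* with *Trf*, in place of 0.04. The ferritin chains had r of 0.10 across 1045 YFP-negative cells and 0.02 across 4053 YFP-positive cells. *Ftl1* was most like its copy *Ftl1-ps1*, with r of 0.22 and 0.16, followed by *Selenop* and *Tmsb4x*. Cells of 1 library share their depth by thinning and their free RNA, and correlations of this size in sparse counts are given as a description only.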

How the data were processed

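Single-cell RNA was measured on the 10x v2 platform in 1 library of YFP-negative and 1 of YFP-positive macrophages. What was deposited are unnormalized UMI counts of every gene in every barcode, made by the authors with Cell Ranger on GRCm38 (3.0.2 in the submitters' processing notes, which also name Seurat 2.2.0, while the methods give an earlier Cell Ranger). No filter on cells had been applied to them, and the methods' minimum of mapped reads per cell cannot be repeated on UMI counts. The libraries held 3653688 and 9365598 UMIs, of which 66.2% and 72.0% were in cells.

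Counts were summed over cells and scaled to CPM. Log2 ratios used a pseudocount of 1 CPM and an exact binomial interval. For shares and correlations each cell was thinned to 500 UMIs (seed 0). Free RNA was taken from barcodes with 10 to 100 UMIs. Leiden clusters used scanpy 1.11.5 and leidenalg 0.10.2 with 2000 variable genes, 20 principal components, 20 neighbours and a resolution of 0.8, without the iron genes. With equal cluster shares, the CPM of each YFP-positive cluster was weighted by that cluster's share of the UMIs of YFP-negative cells. Scrublet marked 3 YFP-negative and 0 YFP-positive cells and so did not work, and doublets were kept. Python 3.11.15, numpy 2.4.6, scipy 1.17.1, pandas 2.3.3 and matplotlib 3.10.9 were used. The counting functions were tested on simulated data. Gene positions came from GENCODE M21, which lists 99.8% of the gene identifiers, and promoters from RefSeq.

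The genes named are the 8 of the set, the 4 highest of the further iron genes with those past 1.5-fold, the annotated copies of ferritin genes, the leading genes of clusters and up to 3 genes most like a member at 100 CPM or more in both libraries. Further iron genes at the ends of the range, without a UMI or at 5 to 20 CPM with an interval on one side of 0, the genes of single cells and examples of markers are named beside them. A further marker gene is left out and not reported here. The set and the lists were chosen with earlier results of these data known. Alternatives were minimums of UMIs, mitochondrial share and doublets, weighting and thinning of cells, scaling, pseudocount, free RNA, clusters left out, copies added and the resolution. Weighting to equal cluster shares and the comparisons with genes of 10 to 30 and 5 to 20 CPM and levels without single cells were added after the data had been seen.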

Additional observations from a re-analysis of the deposited data

Results flagged for a closer look

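Barcodes with 101 to 499 UMIs lie between the sparse barcodes and the cells and were counted as neither. There were 387 in the YFP-negative and 1816 in the YFP-positive library. *Fth1* was at 13785 CPM (13024–14579) in those of the YFP-negative and 12779 CPM (12440–13125) in those of the YFP-positive library, more than in cells and more than in barcodes with 10 to 100 UMIs. *Ftl1* was at 6572 and 6517 CPM, less than in cells, so the heavy chain outnumbered the light chain there, the reverse of its order in cells. The Schwann cell markers summed to 9599 and 9945 CPM in the same barcodes, compared with 526 and 530.3 CPM in cells, and their part in the level of *Fth1* was not tested. In each library these barcodes are those just under the 500 UMIs required of a cell.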

How the results depend on the processing

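Of 96 recomputed log2 ratios between the libraries, 83 stayed within the interval of the value reported. The others were as follows. With equal weights for cells *Fth1* was at 0.049, *Ftl1* at 0.012 and *Trf* at −0.33. With every cell thinned to 500 UMIs before summing *Fth1* was at 0.076, *Ftl1* at 0.017, *Hmox1* at 0.13, *Slc11a1* at −0.42 and *Trf* at −0.44. Subtraction of 10% free RNA put *Fth1* at −0.043, and the added copies put *Ftl1* at −0.10. At equal cluster shares *Ftl1* was at 0.018, *Cp* at −0.11 and *Trf* at −0.093. Signs thus turned for *Fth1*, *Ftl1* and *Hmox1*, whose ratios were near 0, and for no other gene. Sums of thinned cells rest on 1 random draw that kept part of the UMIs, and no interval was taken for them. The causes were not tested. Across the alternatives *Slc40a1* lay between −0.87 and −0.37 and *Tfrc* between −1.24 and −0.98. Shares of cells with a UMI moved in 29 of 32 recomputed values with the depth to which cells were thinned, and the highest level of a gene in a cluster moved in 11 of 24 with the clustering. Depth limits *Slc40a1* and *Tfrc* most, with 61 and 51 UMIs among YFP-negative cells, and 3 counts are 1.24 CPM in the YFP-negative and 0.445 CPM in the YFP-positive library. No paired analysis was possible because each gate is 1 library.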

Other observations

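The 3 further iron genes at 5 to 20 CPM whose intervals of the log2 ratio lay below 0 are named here, a choice made after their values were seen. *Spic*, a transcription factor known from iron-recycling macrophages of the spleen, was at 15.3 CPM in YFP-negative and 7.11 CPM in YFP-positive cells, with a log2 ratio of −1.01 (−1.59 to −0.40). Its UMIs were spread over 35 YFP-negative and 48 YFP-positive cells, most often in the *Gpx3* cluster, which also held the most *Slc40a1* UMIs. That cluster held more UMIs of all genes than any other, and the level of *Spic* in it was not compared with other cells. Sparse barcodes had 13.2 and 8.85 CPM. *Slc22a17*, a receptor for the siderophore-binding protein lipocalin 2, was at 11.2 and 4.001 CPM, a log2 ratio of −1.28 (−1.97 to −0.57), over 23 and 27 cells.

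*Lcn2*, which encodes lipocalin 2, had 32 UMIs (13.2 CPM) in YFP-negative cells and 0 in YFP-positive cells, where the interval reached 0.547 CPM. Its log2 ratio was −3.83 (−3.83 to −3.08). Of the 32 UMIs 31 came from 1 cell. The same cell, in the *Acta2* cluster, held the highest number of *Trf* UMIs of any YFP-negative cell, 53 of its 3863 UMIs, and with 1 *Fth1* and 5 *Ftl1* UMIs hardly any ferritin. Its other leading genes include the milk protein gene *Csn3* (42 UMIs, with 2 in all other YFP-negative cells) and the keratin gene *Krt18* (10 UMIs, with 0 in all others). The *Trf* level of the *Acta2* cluster among YFP-negative cells, 3081 CPM from 55 UMIs, rests on this cell, and the cluster over both libraries would be at 397 CPM in place of 747 CPM without it. Without it the *Trf* level of all YFP-negative cells would be 1078 CPM.

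The most UMIs of a ferritin chain in a single cell were found in the YFP-positive library, in a cell of the *Irf7* cluster with 386 *Ftl1* UMIs, 12.4% of its 3108 UMIs. The next highest YFP-positive cell held 132 *Ftl1* UMIs.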
